A study of Mus musculus with 7 samples.

Results

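The ATF4 amino acid stress response was followed through 10 mouse genes: Atf4, Ddit3, Asns, Chac1, Trib3, Slc7a3, Slc7a11, Psat1, Sesn2 and Ddit4. Each was found by its symbol in the deposited table, which lists 18145 genes, and all 10 passed the filter on low values that left 18134 genes for testing. The genes were chosen by their normalized counts in these same libraries, above all by the spread among the WT libraries and the contrasts between genotypes, so their levels and differences are given as a description. No p is given for a member; counts of members called in the fit over all genes stand beside the share of all genes called, as a description that supports nothing. The libraries hold RNA of mouse neural stem cells, self-renewing precursors of neurons and glia grown in culture, taken at passage 1. By the design text each library is its own line: 3 lines were labelled WT, 2 Tet-TFoCa (TFoCa below, Tet-FoCa in that text) and 2 Tet-TMut (TMut below). The labels name no single allele, age or treatment, and no treatment that would starve cells of amino acids is given for any group. TET enzymes, to which the genotype names refer, oxidize methylated cytosine in DNA.

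ATF4 is a transcription factor of the integrated stress response. In this response kinases such as GCN2, which senses uncharged tRNA, phosphorylate the initiation factor eIF2, general translation falls, and translation of the Atf4 mRNA rises. ATF4 then pairs with C/EBP proteins and activates genes for amino acid uptake, amino acid synthesis, tRNA charging and, under lasting stress, cell death. Only RNA was measured here, so the ATF4 protein and the phosphorylation of eIF2 were not analysed.

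All values below are normalized counts, the reads of a gene divided by a size factor of its library. Reads in genes ranged from 33340167 to 62545457 per library, and the lowest value of any of the 10 genes, Slc7a11 in TMut replicate 2, rested on 228 reads, so counting error was small beside the spread between lines. All 10 neural stem cell markers looked for were listed, among them Nes, Sox2 and Pax6, with a summed level of 177369 to 184606 in WT, 149816 to 160723 in TFoCa and 127641 to 152964 in TMut. The 5 neuron markers summed to 50997 to 55163 in WT, 38061 to 40173 in TFoCa and 7750 to 13262 in TMut. The 8 mesenchymal markers, such as Col1a1, summed to 138811 to 150226 in WT, 355835 to 401603 in TFoCa and 192783 to 277137 in TMut. The 5 pluripotency markers ranged from 10956 to 22504 in WT, 802 to 1008 in TFoCa and 10243 to 39282 in TMut, and 4 of 5 astrocyte markers were listed, with sums of 7872 to 11033, 6207 to 7568 and 1573 to 1648. The 5 oligodendrocyte lineage markers summed to 5774 to 6584, 3787 to 4822 and 1504 to 1659 in the same order, while S100b and the 4 microglia and blood markers were not among the listed genes. Several of these marker sums differed between the genotypes. A sum is carried by its most abundant genes, so a single marker need not follow it. The mixture of cells was not measured, and its part in the differences below was not tested. In bulk RNA, fewer cells of a type and less RNA per cell cannot be told apart.

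The promoters are shown because ATF4 is known to act through a short composite element, the C/EBP-ATF response element. Across the libraries 9 of the 10 genes moved together, but the genes were chosen by these same counts. The shares of promoters with the element are therefore a description only. RefSeq promoters of build GRCm38.p6, from 250 bases before to 50 bases after the start, were at hand for 9 of the 10 genes. The element, searched as TGATGNAA on both strands, was in the promoters of 4 of these 9 genes (44.4%), against 4.51% of all 27025 genes with a promoter entry. The stretches around the matches follow, 5′ to 3′ on the strand of the gene, with the matched letters in capitals.
Asns, chr6:7693210-7693268, minus strand: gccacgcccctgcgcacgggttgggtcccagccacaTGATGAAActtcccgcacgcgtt
Chac1, chr2:119351013-119351092, plus strand: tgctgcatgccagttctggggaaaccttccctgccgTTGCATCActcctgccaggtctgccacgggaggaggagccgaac
Slc7a11, chr3:50443617-50443715, minus strand: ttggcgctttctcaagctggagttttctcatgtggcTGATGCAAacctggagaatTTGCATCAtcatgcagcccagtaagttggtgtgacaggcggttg
Trib3, chr2:152344028-152344057, minus strand: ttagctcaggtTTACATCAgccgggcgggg

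The Asns, Chac1 and Slc7a11 matches lay before the start, and Slc7a11 held 2 of them in opposite directions. The Trib3 match lay at positions 15 to 22 after the start. Fewer of these promoters held the other motifs: TGACGTCA, the cyclic AMP response element, was in 0 of 9 promoters (2.03% of all genes) and TGACNNNGC, the antioxidant response element, was in those of Asns and Sesn2 (2 of 9, against 13.99% of all genes). Letters that match are not evidence of binding, and a promoter without them says nothing about ATF4.

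Atf4 itself had normalized counts of 10427, 21096 and 22297 in WT replicates 1, 2 and 3. It had 20987 and 21335 in the TFoCa libraries, and 13130 and 16180 in the TMut libraries. WT replicate 1 was thus the lowest of the 7 libraries, while the other WT libraries lay beside TFoCa. Ddit3, which encodes the death-promoting factor CHOP, had 704, 2796 and 2931 in WT, 3121 and 4083 in TFoCa, and 691 and 839 in TMut. WT replicate 1 again sat with TMut, and the remaining WT libraries just below TFoCa. The exons of Ddit3 overlap those of the methionyl-tRNA synthetase gene (Mars1 in the table) and of Gm4189 on the opposite strand, and the strand setting of the counting is not given in the sources used here, so its level is less certain than the others.

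Among the genes of amino acid synthesis, Asns, which makes asparagine, had 4847, 27830 and 27908 in WT, 20647 and 22315 in TFoCa, and 6049 and 8860 in TMut. Psat1, the aminotransferase of serine synthesis, had 11048, 29416 and 34190 in WT, 22682 and 26228 in TFoCa, and 12449 and 13897 in TMut. In both genes WT replicate 1 was the lowest library, WT replicates 2 and 3 were the highest, and TFoCa lay above TMut without overlap.

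The amino acid transporters showed wider gaps. Slc7a3, a carrier of cationic amino acids such as arginine and lysine, had 339, 5522 and 5517 in WT, 4644 and 5551 in TFoCa, and 1269 and 2833 in TMut. Slc7a11, the cystine importer that exports glutamate, had 726, 2866 and 3781 in WT, 3922 and 4171 in TFoCa, and 777 and 274 in TMut. WT replicate 1 was lowest for Slc7a3, where both TMut libraries lay between it and the rest. For Slc7a11 it lay between the TMut libraries.

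The regulators and effectors downstream of ATF4 showed the same low libraries. Chac1, which breaks down glutathione, had 805, 8517 and 8762 in WT, 6465 and 6748 in TFoCa, and 825 and 1258 in TMut. Trib3, a pseudokinase that binds ATF4 and dampens its activity, had 277, 4869 and 4812 in WT, 4984 and 7333 in TFoCa, and 736 and 1226 in TMut. WT replicate 1 was the lowest library for both.

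Sesn2 and Ddit4 both restrain the growth kinase mTORC1, Sesn2 as a leucine sensor and Ddit4 through the TSC complex, and they differed from each other. Sesn2 had 6340, 19036 and 20542 in WT, 13603.5 and 16714 in TFoCa, and 6378 and 7750 in TMut, with the groups in the order seen for Asns and Psat1. Ddit4 had 16026, 16400.5 and 16416 in WT, 13352 and 24771 in TFoCa, and 13958 and 10609.5 in TMut. Its WT libraries were nearly equal, its TFoCa libraries lay on both sides of WT, and both TMut libraries lay below WT.

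**Figure D1:**
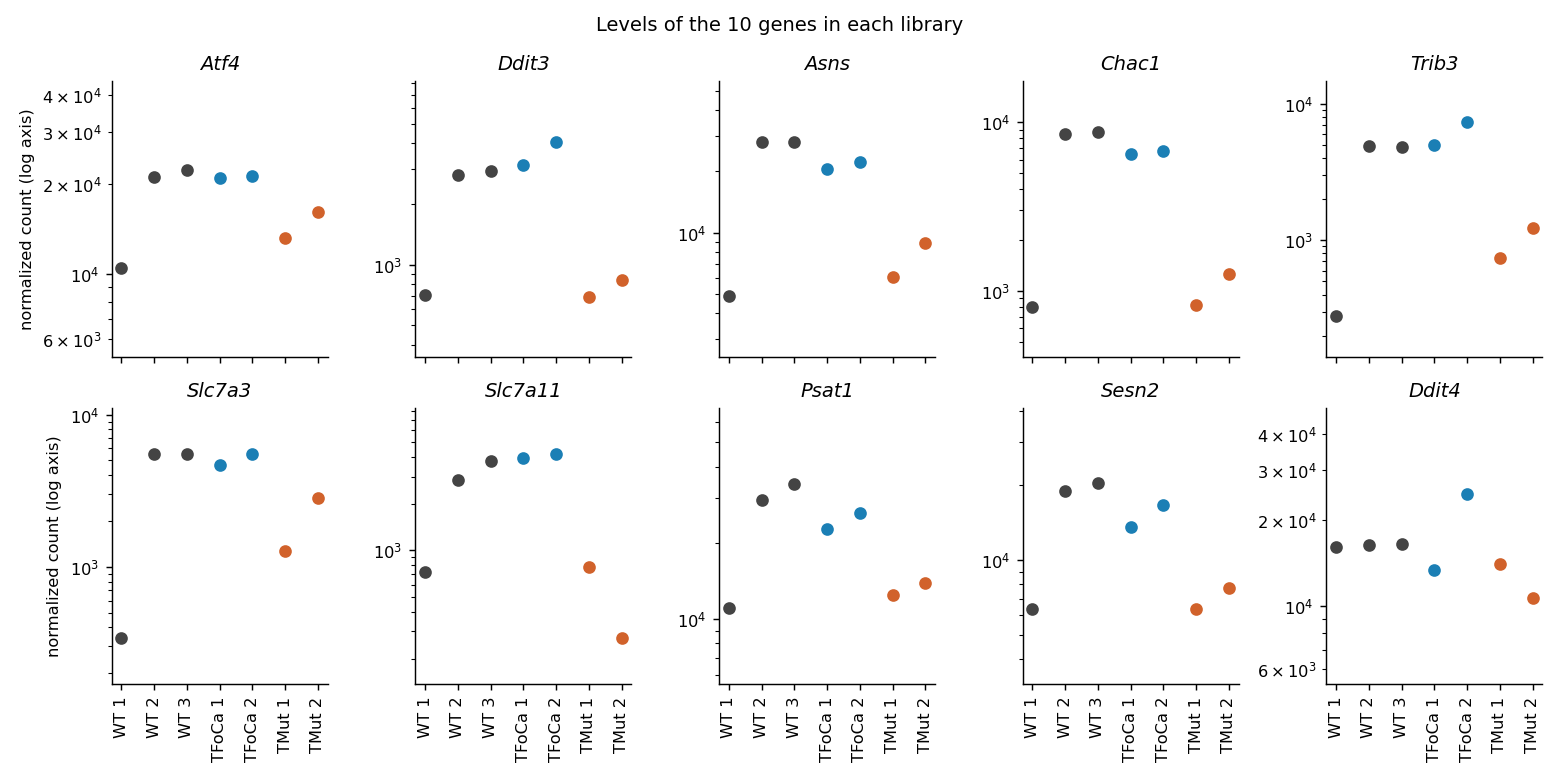
Normalized counts of the 10 genes, each panel 1 gene and each point 1 library (x axis: WT in dark grey, TFoCa in blue, TMut in orange; y axis: normalized count, log scale, its range set for each panel). WT replicate 1 is the lowest library for 7 of the 10 genes and lies at or below the higher TMut library for 9 of them; the exception is Ddit4.

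The genes were chosen with the spread among the WT libraries known, so what follows only describes it. WT replicate 1 was at least 1 log2 unit below both other WT libraries for 9 of the 10 genes, against 2.21% of all tested genes. On the log2(value + 1) scale it lay below the mean of WT replicates 2 and 3 by 4.12 for Trib3 (17.5-fold), 4.02 for Slc7a3 (16.3-fold) and 3.42 for Chac1 (10.7-fold). Asns lay 5.75-fold below, Slc7a11 4.58-fold and Ddit3 4.06-fold. Sesn2 lay 3.12-fold below, Psat1 2.88-fold and Atf4 2.08-fold, so the transcript of the factor itself differed less than those of 8 of the other 9 genes. Ddit4 lay 1.02-fold below. Between WT replicates 2 and 3, Atf4 differed by 0.08 log2 units and Ddit3 by 0.07.

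The range over the 3 WT libraries was 4.13 log2 units for Trib3, a range reached by 22 of the 18134 tested genes. It was 4.02 for Slc7a3 (28 genes), 3.44 for Chac1 (50 genes), 2.53 for Asns (174 genes) and 2.38 for Slc7a11 (216 genes). It was 2.06 for Ddit3 (344 genes), 1.70 for Sesn2 (651 genes), 1.63 for Psat1 (729 genes) and 1.10 for Atf4 (1773 genes). The median range over all tested genes was 0.29, and Ddit4, with 0.03, was among the steadier genes of the table. Ranges of this size were rarer still in well-expressed genes: of the 13198 with a mean of 100 or more, Trib3's range was reached by 2, Slc7a3's by 3 and Chac1's by 7.

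Of those 13198 genes, 116 lay at least 1 log2 unit lower in WT replicate 1 than in both other WT libraries, against 6 for WT replicate 2 and 9 for WT replicate 3. The 116 held 9 of the 10 genes and 36 of 68 further genes of the pathway, which is 52.9% of those 68 and 31.0% of the 116, and 71 genes of neither. The wider pathway joins 4 lists: other regulators and effectors of the integrated stress response, amino acid synthesis, amino acid transporters, and cytosolic aminoacyl-tRNA synthetases, which charge tRNAs. The median distance of WT replicate 1 from the mean of the other WT libraries was -2.10 over the 10 genes, -1.73 over the 14 other regulators and effectors, -1.17 over the 19 synthesis genes, -1.15 over the 20 synthetases and -0.46 over the 15 transporters. It was -0.01 over all tested genes. In the same library the 15 genes of the eIF2 kinases, eIF2 and eIF2B had a median of 0.03, the 21 genes of ER chaperones and the unfolded protein response 0.30, the 16 NRF2 genes 0.10 and the 15 hypoxia genes 0.46. Fgf21, a secreted stress hormone, and Atf5, the closest relative of Atf4, stood at -3.68 and -3.44 by the same measure. Trim66, outside every list, stood at -5.62.

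**Figure D2:**
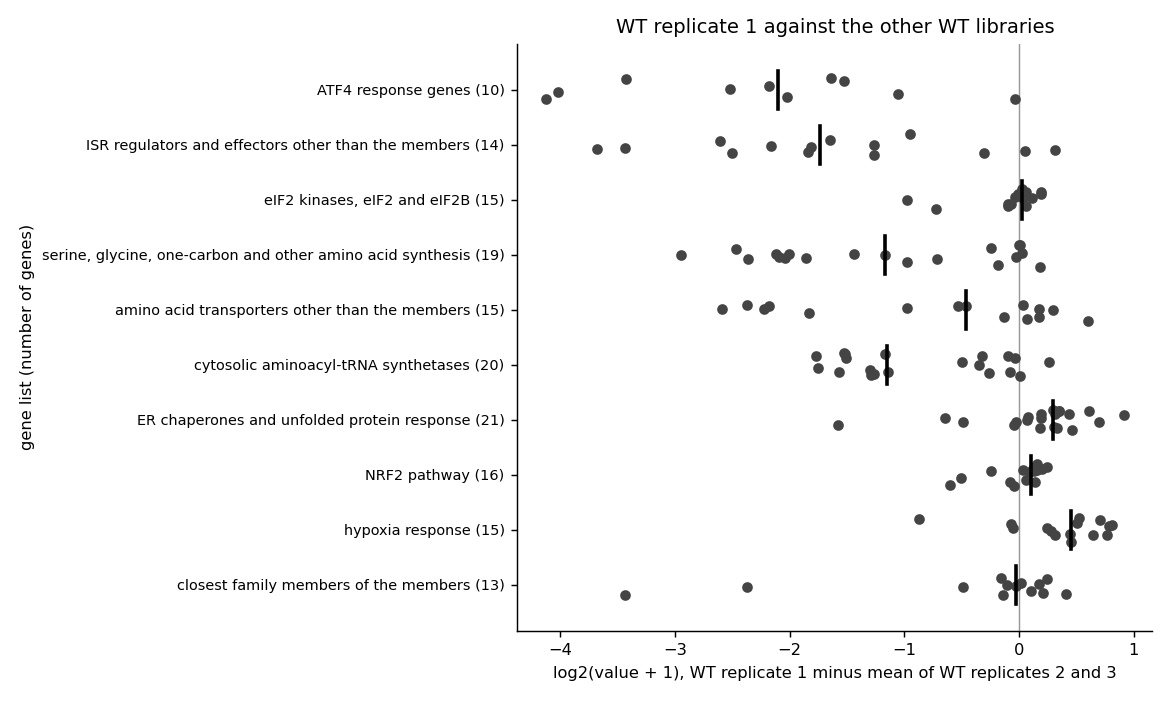
Each point is a gene, placed by its log2(value + 1) in WT replicate 1 minus the mean of WT replicates 2 and 3 (x axis), in rows by gene list with the number of genes in brackets; bars mark list medians. The 10 ATF4 response genes run from -4.12 to -0.03 with a median of -2.10, while the median of the ER chaperone list is 0.30.

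Over the 10 genes, the median of the log2 values around each gene's mean over the 7 libraries was -1.21 in WT replicate 1, 0.78 and 0.92 in the other WT libraries, 0.69 and 0.88 in TFoCa, and -1.06 and -0.61 in TMut. Over the 68 further pathway genes the same medians were -0.74, 0.37 and 0.45 in WT, 0.23 and 0.32 in TFoCa, and -0.41 and -0.21 in TMut. The libraries thus stood in the same order for both sets, except that WT replicate 2 and TFoCa replicate 2 changed places.

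Levels were compared between genes per kilobase of exon. The mean over the WT libraries was 9277 normalized counts per kilobase for Ddit4, 7608 for Atf4, 7384 for Asns, 5850 for Psat1, 4405 for Sesn2 and 3682 for Chac1. It was 1562 for Trib3, 1252 for Ddit3, 1002 for Slc7a3 and 177 for Slc7a11, whose annotated exons span 13922 bases in all. Because WT replicate 1 set apart 9 of these genes, neighbours in this order such as Atf4 and Asns did not differ beyond the spread of the WT libraries.

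TFoCa was compared with WT first. On the log2(value + 1) scale all 10 differences were above 0, with a median of 0.61 against -0.02 over all tested genes. That median was 1.09 without WT replicate 2, 1.11 without WT replicate 3, 0.26 with edgeR and 0.23 with DESeq2. They were 1.69 ± 1.13 (SE) for Trib3, 1.22 ± 1.12 for Slc7a3, 1.02 ± 0.69 for Slc7a11 and 0.99 ± 0.56 for Ddit3. The rest ran from 0.13 ± 0.42 for Psat1 to 0.75 ± 0.93 for Chac1, with Atf4 at 0.32 ± 0.30. Both TFoCa libraries lay above all 3 WT libraries for 3 genes, Ddit3, Trib3 and Slc7a11, against 21.0% of tested genes. In the limma fit over all genes, 0 of the 10 were called at an adjusted p under 0.05, where 5.25% of tested genes were called higher and 3.52% lower. An unadjusted p under 0.05 was found for 0 of the 10, a count with no share of all genes beside it. The tests of edgeR, DESeq2 and limma-voom also called 0 of the 10, where they called 1606, 2947 and 1540 of all genes. Without WT replicate 1 the sign turned for 6 of the 10 genes and the median was -0.08, with Atf4 at -0.04 ± 0.13, Asns at -0.38 ± 0.18 and Trib3 at 0.32 ± 0.27. Ddit4 turned from 0.16 to -0.29 without TFoCa replicate 2. Again 0 were called without WT replicate 1, against 2.82% of genes higher and 1.24% lower.

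TMut was lower than WT in all 10 differences, with a median of -0.96 against 0.00 over all tested genes. Leaving out WT replicate 1 gave a median of -1.72, leaving out replicate 2 gave -0.62 and leaving out replicate 3 gave -0.55. They were -2.11 ± 0.69 (SE) for Slc7a11, -1.94 ± 0.93 for Chac1, -1.24 ± 0.56 for Ddit3 and -1.09 ± 0.70 for Asns. Trib3 had -0.97 ± 1.13, Sesn2 -0.94 ± 0.46 and Psat1 -0.76 ± 0.42. Ddit4 had -0.42 ± 0.24, Atf4 -0.22 ± 0.30 and Slc7a3 -0.20 ± 1.12. The errors of Trib3, Slc7a3 and Atf4 were larger than the differences themselves, and Slc7a3 turned to 0.47 without WT replicate 2 or 3 and to 0.38 without TMut replicate 1. Of the 10, 1 was called lower (Slc7a11), where 20.4% of tested genes were called lower and 18.4% higher. That call was lost without WT replicate 2, WT replicate 3 or TMut replicate 2, and in a fit to WT and TMut alone the 1 gene called was Ddit4 instead. Both TMut libraries lay below all 3 WT libraries for 1 gene, Ddit4, against 33.6% of tested genes.

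Without WT replicate 1, 9 of the 10 genes were called lower in TMut than in WT, all but Ddit4, where 17.3% of genes were called lower and 15.4% higher. This fit leaves out the library that was low for these same genes, so the count describes how far the comparison rests on it. The differences were then -3.08 ± 0.19 (SE) for Chac1, -2.83 ± 0.44 for Slc7a11, -2.35 ± 0.27 for Trib3 and -1.93 ± 0.18 for Asns. They were -1.91 ± 0.17 for Ddit3, -1.54 ± 0.34 for Slc7a3, -1.49 ± 0.15 for Sesn2 and -1.27 ± 0.13 for Psat1. Atf4 lay at -0.57 ± 0.13 and Ddit4 at -0.43 ± 0.29.

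**Figure D3:**
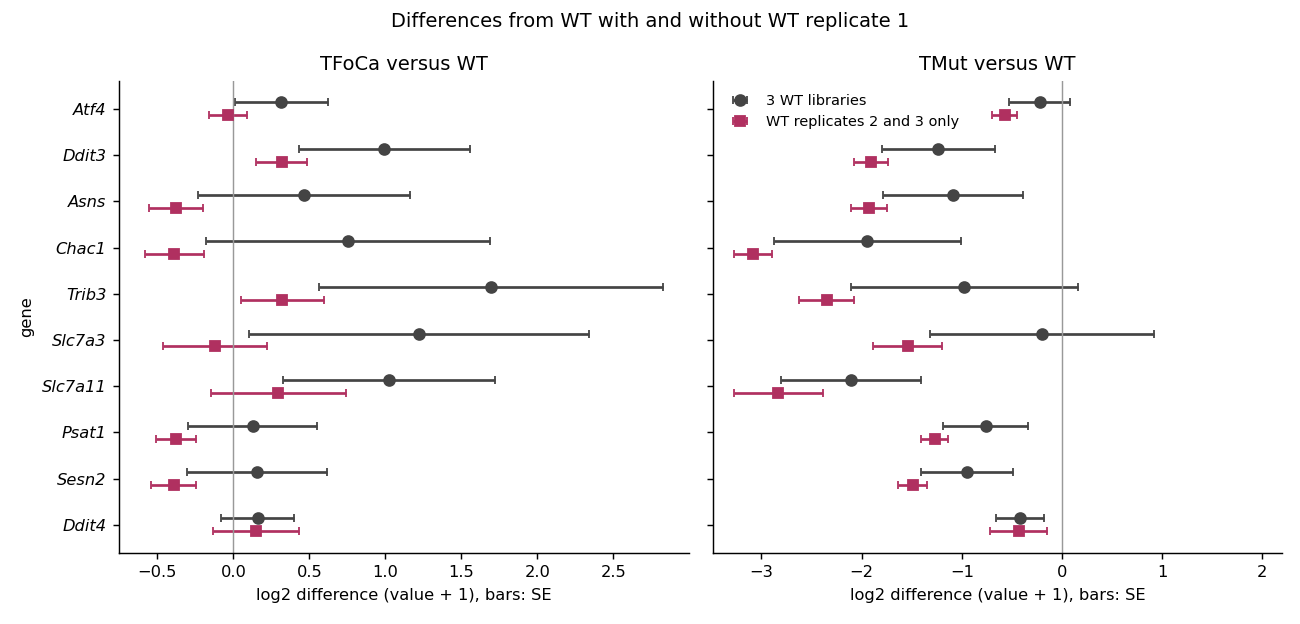
Differences from WT for the 10 genes (rows) on the log2(value + 1) scale (x axis), TFoCa on the left and TMut on the right; points are differences and bars 1 SE, with all 3 WT libraries (dark circles) and with WT replicates 2 and 3 only (red squares). Chac1 moves from -1.94 to -3.08 in TMut, and 6 of the 10 genes change side of 0 in TFoCa.

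TMut and TFoCa can be set against each other without any WT level entering the difference, although the WT libraries enter the estimate of the spread. Both TMut libraries lay below both TFoCa libraries for 9 of the 10 genes, all but Ddit4, against 33.5% of tested genes. The differences were -3.13 ± 0.76 (SE) for Slc7a11, -2.70 ± 1.02 for Chac1, -2.67 ± 1.24 for Trib3 and -2.23 ± 0.62 for Ddit3. They were -1.55 ± 0.76 for Asns, -1.42 ± 1.22 for Slc7a3 and -1.10 ± 0.50 for Sesn2. Psat1 had -0.89 ± 0.47, Ddit4 -0.58 ± 0.26 and Atf4 -0.54 ± 0.33, and the median was -1.49 against 0.00 over all tested genes. Of the 10, 2 were called lower, Ddit3 and Slc7a11, where 18.5% of tested genes were called lower and 17.3% higher. The count was 0 without TFoCa replicate 2 or TMut replicate 2 and 1 without TMut replicate 1. It was 9 without WT replicate 1 (16.5% of genes lower, 15.6% higher), with the same differences and smaller errors. In a fit to these genotypes alone it was 8, where 3419 of all genes were called, against 6491 in the main fit. Both fits leave out the library that was low for 9 of these same genes. The counts of 9 and 8 therefore only describe how far the estimate of the spread rests on it.

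Counts for the 68 further pathway genes and for each list below are to be read against the shares of all tested genes called: 18.4% higher and 20.4% lower in TMut versus WT, 17.3% and 18.5% in TMut versus TFoCa, and 5.25% and 3.52% in TFoCa versus WT. Without WT replicate 1 these shares were 15.4% and 17.3%, 15.6% and 16.5%, and 2.82% and 1.24%. All genes called in TMut versus WT were 7043, and 4861 and 4802 without WT replicate 2 or 3. Without TMut replicate 1 or 2 they were 5865 and 4329. In TFoCa versus WT they were 1590, and 495 and 638 without WT replicate 2 or 3. In TMut versus TFoCa they were 6491, and 5756 and 3164 without TMut replicate 1 or 2. Counts with a library left out are to be read against these. In TMut versus WT, 6 of 68 rose (8.82%) and 10 fell (14.7%) by limma, both shares below those of all genes, with a median difference of -0.29. Without WT replicate 1, 5 rose and 34 fell with a median of -0.68, and the count that fell was 5 without WT replicate 2 or 3 and 4 without either TMut library. WT replicate 1 was at least 1 log2 unit below both other WT libraries for 36 of the 68. Counts and differences without it, here and for each list below, therefore only describe how far a comparison rests on that library. The median was -0.11 without WT replicate 2, -0.09 without WT replicate 3, -0.19 without TMut replicate 1 and -0.50 without TMut replicate 2. In TMut versus TFoCa, 7 rose (10.3%) and 12 fell (17.6%) with a median of -0.63, and 37 fell without WT replicate 1, 6 without TFoCa replicate 2, 7 without TMut replicate 1 and 4 without TMut replicate 2. Against WT, 2 rose (2.94%) and 1 fell (1.47%) in TFoCa with a median of 0.24, which was 0.42 without WT replicate 2, 0.46 without WT replicate 3, 0.15 with edgeR and 0.12 with DESeq2. That became 3 and 0 without WT replicate 1 (median -0.17) or TFoCa replicate 1, 1 and 0 without WT replicate 2 or 3, and 1 and 2 without TFoCa replicate 2.

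Of the 14 other regulators and effectors, 3 rose (21.4%) and 2 fell (14.3%) in TMut versus WT, against 18.4% and 20.4% of all tested genes. Cdkn1a, the cell cycle inhibitor p21, had 9136, 8617 and 9006 in WT, 14510 and 15406 in TFoCa, and 21273 and 23644 in TMut. Its rise was 1.33 ± 0.09 (SE) on the log2 scale in TMut (adjusted p = 0.000128) and 0.75 ± 0.09 in TFoCa (adjusted p = 0.00558), with no overlap between the genotypes. The death receptor gene Tnfrsf10b rose by 1.61 ± 0.16 in TMut (adjusted p = 0.000358). Ndrg1 rose by 0.85 ± 0.19 in TMut (adjusted p = 0.0103) and by 0.99 ± 0.19 in TFoCa (adjusted p = 0.0204). The rise of Ndrg1 in TMut was not called without TMut replicate 1 (adjusted p = 0.0614), nor that in TFoCa without any 1 of the WT and TFoCa libraries (adjusted p from 0.0507 to 0.0681). The WT libraries of Cdkn1a were close together. The lipoprotein receptor gene Vldlr, a known ATF4 target, fell by 2.06 ± 0.31 in TMut versus WT (adjusted p = 0.00189). Cebpg, which encodes a partner of ATF4 at its element, had 2536, 6019 and 6152 in WT, 4601 and 5789 in TFoCa, and 1528 and 1660 in TMut. It was named after its values were seen. Its difference was -1.51 ± 0.36 in TMut versus WT (adjusted p = 0.013) and -1.70 ± 0.39 in TMut versus TFoCa (adjusted p = 0.0143). The former was not called without either TMut library (adjusted p = 0.0592 without replicate 1 and 0.0567 without replicate 2), nor the latter without TFoCa replicate 2, TMut replicate 1 or TMut replicate 2 (adjusted p from 0.05 to 0.0589). Without WT replicate 1, 6 of the 14 fell in TMut versus WT, and 1 fell without either TMut library. Of these 14 genes, 2 rose and 0 fell in TFoCa versus WT, and 1 rose without WT replicate 2, WT replicate 3 or TFoCa replicate 2.

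Fgf21, likewise named after its values were seen, had 12.6, 183 and 163 in WT, 800 and 699 in TFoCa, and 29.9 and 40.8 in TMut. Both TFoCa libraries lay above every other library. The log2 difference of TMut from TFoCa was -4.38 ± 1.12 (adjusted p = 0.0201), and the call was lost without any 1 of the TFoCa or TMut libraries (adjusted p from 0.0557 to 0.0717).

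Of the 19 genes of serine, glycine, one-carbon and other amino acid synthesis, 0 rose and 2 fell in TMut versus WT, and 10 fell without WT replicate 1. The count that fell was 1 without WT replicate 2, WT replicate 3, TMut replicate 1 or TMut replicate 2, and 2 rose without TMut replicate 1. Glul, glutamine synthetase, fell by 0.66 ± 0.13 (adjusted p = 0.00529). Aldh1l2, a mitochondrial folate enzyme, had 259, 1470 and 1401 in WT, 1953 and 1955 in TFoCa, and 198 and 115 in TMut, close to the profile of the 10 genes. It fell by 2.42 ± 0.70 against WT (adjusted p = 0.0282), a call lost without WT replicate 2, WT replicate 3, TMut replicate 1 or TMut replicate 2 (adjusted p from 0.0545 to 0.152). Against TFoCa it differed by -3.68 ± 0.76 (adjusted p = 0.00961), a comparison chosen after its values were seen, and this call was lost without TMut replicate 2 (adjusted p = 0.0589). Gpt2, the mitochondrial alanine aminotransferase, had -1.66 ± 0.65 (adjusted p = 0.0762). The difference was -2.45 without WT replicate 1, which was the low WT library for this gene (3675 against 17544 and 20347). Only Mthfd1 was called in TFoCa versus WT, where 0 rose and 1 fell. This gene for a cytosolic folate enzyme fell by 0.96 ± 0.23 (adjusted p = 0.0399). That call was lost without any 1 WT library or TFoCa replicate 1 (adjusted p from 0.0958 to 0.127), while 2 genes fell without TFoCa replicate 2. Cbs, which condenses homocysteine and serine, had -0.70 ± 0.30 (adjusted p = 0.195).

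Of the 15 other amino acid transporters, 0 rose and 6 fell in TMut versus WT. The arginine carrier Slc7a2, the nearest relative of Slc7a3 that fell, changed by -1.26 ± 0.22 (adjusted p = 0.00341) and had WT levels of 2173, 1827 and 2019. Its WT libraries were therefore close together, unlike those of Slc7a3. Slc7a1, another relative of Slc7a3 in this list, was named after its values were seen. It had 2418, 12016 and 12979 in WT, 10154 and 10013 in TFoCa, and 2366 and 2612 in TMut. WT replicate 1 was thus low for Slc7a1, as it was for Slc7a3. The neutral amino acid carriers Slc38a2 and Slc38a1 changed by -0.80 ± 0.17 (adjusted p = 0.00732) and -0.67 ± 0.17 (adjusted p = 0.0167), and Slc7a6 by -0.30 ± 0.09 (adjusted p = 0.0372). The call of Slc38a1 was lost without WT replicate 2, WT replicate 3 or either TMut library (adjusted p from 0.0508 to 0.0923), and that of Slc7a6 without any 1 of the WT or TMut libraries (adjusted p from 0.0619 to 0.154). The count that fell was 8 without WT replicate 1 and 2 without WT replicate 2, WT replicate 3, TMut replicate 1 or TMut replicate 2. For the transporters in TFoCa versus WT, limma called 0 of 15, with 3 at an unadjusted p under 0.05, and edgeR, DESeq2 and limma-voom called 0. Slc36a1 had 0.42 ± 0.13 (adjusted p = 0.0955) and Slc36a4 had 0.30 ± 0.10 (adjusted p = 0.118) there.

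Of the 20 cytosolic aminoacyl-tRNA synthetases, 3 rose and 0 fell in TMut versus WT, while 2 rose and 10 fell without WT replicate 1. The 3 that rose were Hars by 0.59 ± 0.09 (adjusted p = 0.00161), Rars by 0.72 ± 0.16 (adjusted p = 0.00993) and Kars by 0.37 ± 0.11 (adjusted p = 0.0295). They charge histidine, arginine and lysine, and the call of Kars was lost without any 1 WT library or TMut replicate 2 (adjusted p from 0.0602 to 0.189). Iars, which charges isoleucine, had 6333, 17346 and 18611 in WT, 15509 and 16788 in TFoCa, and 6781 and 7758 in TMut. Its difference from WT was -0.81 ± 0.42 (adjusted p = 0.16), and -1.31 without WT replicate 1, the lowest library for this gene. In TFoCa versus WT limma called 0 of 20, with 1 at an unadjusted p under 0.05; edgeR and limma-voom called 0 and DESeq2 called 1. Farsa had -0.42 ± 0.11 (adjusted p = 0.052) and Kars -0.25 ± 0.11 (adjusted p = 0.205) there. The element TGATGNAA was in the promoters of 5 of the 13 synthetases and 12 of the 49 wider pathway genes (24.5%) with an entry.

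Upstream of ATF4, 8 of the 15 genes listed under the eIF2 kinases, eIF2 and eIF2B rose and 2 fell in TMut versus WT, with a median of 0.28. The list also holds Gcn1, Impact and Ppp1r15b, which encode none of these. Genes that raise and genes that lower the response are thus counted together. Impact, an inhibitor of GCN2, rose by 0.999 ± 0.111 (adjusted p = 0.000544), Eif2b1, a subunit of the exchange factor eIF2B, by 0.69 ± 0.12 (adjusted p = 0.00301) and Eif2ak2, the RNA-sensing kinase PKR, by 0.97 ± 0.17 (adjusted p = 0.00344). Eif2ak4, which encodes GCN2, fell by 0.51 ± 0.09 (adjusted p = 0.00445), with WT levels of 2047, 2069 and 2048. Without WT replicate 1, 7 rose and 4 fell, and 4 rose without TMut replicate 2. The count that fell was 1 without WT replicate 2, WT replicate 3 or TMut replicate 1. In TFoCa versus WT limma called 0 of 15, with 4 at an unadjusted p under 0.05, edgeR and limma-voom 0 and DESeq2 3, and without TFoCa replicate 1 limma called 1. Impact had 0.40 ± 0.11 (adjusted p = 0.0668) and Eif2b4 -0.38 ± 0.11 (adjusted p = 0.0693) in that comparison.

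Most genes of the unfolded protein response moved the other way from the 10 genes in TMut. Of 21 ER chaperones and unfolded protein response genes, 17 rose and 0 fell in TMut versus WT, with a median of 0.85. The differences of 18 genes were above 0, and those of 3, Herpud1, Sel1l and Atf6, were below 0. Herpud1, named after its values were seen, had 2213, 6102 and 7178 in WT, 6290 and 5477 in TFoCa, and 2133 and 2183 in TMut. Herpud1 and Sel1l are the 2 that fell without WT replicate 1, as counted below. Pdia3, a disulfide isomerase, rose by 1.32 ± 0.18 (adjusted p = 0.00118), from 18932, 14572 and 15196 in WT to 39744 and 40883. Manf rose by 1.02 ± 0.12 (adjusted p = 0.000705), Creld2 by 0.96 ± 0.14 (adjusted p = 0.00153) and the co-chaperone gene Dnajb11 by 0.88 ± 0.11 (adjusted p = 0.00107). Without WT replicate 1, 17 rose and 2 fell, and with any other library left out 15 or 16 rose and 0 fell. Of the 21, 2 rose in TFoCa versus WT, the stress sensors Ern1 by 0.64 ± 0.13 (adjusted p = 0.0256) and Atf6 by 0.78 ± 0.18 (adjusted p = 0.035). Both calls were lost without any 1 WT library or TFoCa replicate 2 (adjusted p from 0.069 to 0.106 for Ern1 and from 0.0573 to 0.118 for Atf6), while 4 rose without TFoCa replicate 1.

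**Figure D4:**
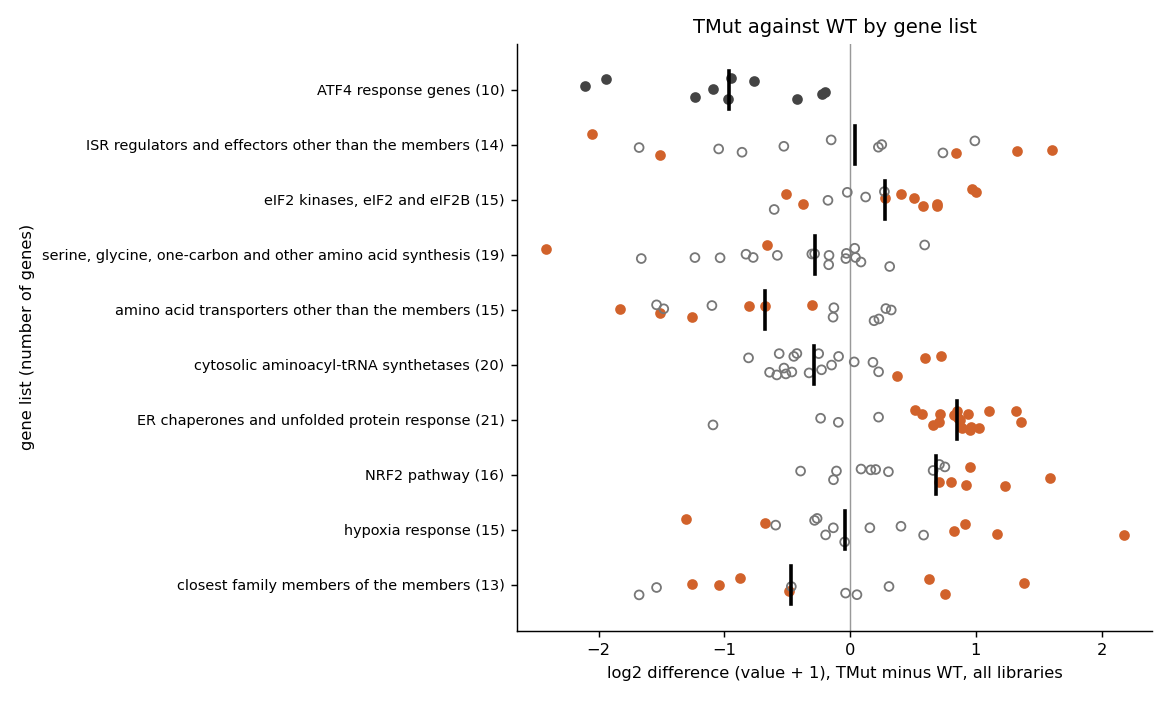
TMut minus WT on the log2(value + 1) scale (x axis) for each gene (points), in rows by gene list with the number of genes in brackets; orange points were called at an adjusted p under 0.05, open points were not, the ATF4 response genes are in dark grey with no call shown, and bars mark medians. The ATF4 response genes have a median of -0.96 and the ER chaperone list 0.85.

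The genes whose profiles over the 7 libraries were most like the mean profile of the 10 were sought among 13188 other genes with a mean of 100 or more, by the root mean square difference of standardized log2 values. They were Trim66 (0.098), Pycr1 (0.116), Iars (0.128), Sars (0.135) and Slc25a36 (0.147). Trim66 had 51.0, 2679 and 2433 in WT, 1340 and 2775 in TFoCa, and 73.7 and 115 in TMut. Of the 10 genes themselves, Chac1 lay closest to their mean (0.165) and Ddit4 farthest (0.850). Those most like Atf4 alone were Cars (0.135), Psph (0.144), Lars (0.173), Gars (0.181) and Pck2 (0.186). Of these 5, 3 are synthetases and Psph is a gene of serine synthesis. All profiles share the same 7 libraries, so they describe likeness in these lines only.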

How the data were processed

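RNA of 7 neural stem cell lines was sequenced. The submitters' processing notes name build mm39 and, as tools, STAR 2.7.3a, DESeq2, featureCounts, Trim Galore 0.6.5 and SAMtools; settings and annotation are not given in the sources used here. The deposited table holds a signal per gene, its reads scaled with the size factor that DESeq2 gave each library. In all 7 columns 100% of values gave whole reads within 0.001 read when the gap between neighbouring low values was taken as the worth of 1 read. In WT replicate 2 the smallest value above 0 stands for 2 reads; count models served only as alternatives. Even numbers made up 70.3% to 79.3% of the counts between 1 and 20 reads, and should each mate have been counted, the count models overstate precision.

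Tests were run for 18134 of 18145 genes, those that reached 10 in 2 libraries. A single limma model (3.58.1, R 4.3.3, trended variance) held the 3 genotypes on the log2(value + 1) scale, and calls were made where p, adjusted by Benjamini-Hochberg over all tested genes, was under 0.05. A pseudocount of 1 slightly understates changes of low genes. The p-values measure the spread between these lines. The script was tested on simulated data of 18134 genes, with 100 changed by 1 and 100 by 2 log2 units. It recovered 44% and 77% of these in TFoCa versus WT, with 17 false calls. In TMut versus WT it recovered 42% and 76%, with 8 false calls. A gene that is not called can therefore still have changed. The simulated libraries of a genotype shared a single level per gene, so no library was set apart as WT replicate 1 was. Far fewer genes changed there than were called in TMut versus WT, so the shares recovered need not hold for the real data. From each list the text names the 4 genes with the smallest adjusted p in TMut versus WT and the 2 with the smallest in TFoCa versus WT, except 1 gene that is not reported here. The members, lists and rules were chosen with earlier results of these data known. Alternatives were other pseudocounts (0.5 and 8), filters, normalizations (TMM and quantile), tests (edgeR 4.0.16, DESeq2 1.42.0 and limma-voom), a fit to only 2 genotypes, a replicate block, a threshold of 0.01 and leaving out each library. Promoters and exon lengths come from GRCm38 annotation, another build than that of the counts, so its positions were used for promoter sequence and for overlap between genes only.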

Additional observations from a re-analysis of the deposited data

How the results depend on the processing

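The number of all genes called was 1590 in TFoCa versus WT, 7043 in TMut versus WT and 6491 in TMut versus TFoCa. It became 2947 in the first with DESeq2, 342, 4008 and 2825 in the 3 comparisons at an adjusted p under 0.01, and 3419 in TMut versus TFoCa in a fit to these genotypes alone. With 1 library left out it ranged from 495 to 1768, from 4329 to 8127 and from 3164 to 5940. The number of the 10 ATF4 response genes called was 0 in TFoCa versus WT under every alternative run, and the differences of Psat1 and Sesn2 there turned to -0.03 and -0.01 with DESeq2. In TMut versus WT, 1 was called. With quantile normalization 0 were called, with limma-voom 0, at an adjusted p under 0.01 0 and with DESeq2 3. All genes called were 6891 with quantile normalization, 6905 with limma-voom and 7664 with DESeq2. With 1 WT library left out, from 0 to 9 of the 10 were called. In TMut versus TFoCa, 2 were called; 8 were called in a fit to these genotypes alone, 0 at an adjusted p under 0.01, and from 0 to 9 with 1 library left out. Of the 68 further pathway genes, 3 were called in TFoCa versus WT, with 5 by DESeq2, 1 at 0.01 and from 1 to 3 with 1 library left out. In TMut versus WT 16 were called, with 8 at 0.01 and from 9 to 39 with 1 library left out. In TMut versus TFoCa 19 were called, with 38 in the fit to these genotypes alone, 9 at 0.01 and from 9 to 44 with 1 library left out. Apart from the library or genotype left out and the stricter threshold, the cause of these shifts was not tested.

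The replicate block, with the replicate number as a covariate, gave 555 genes in TFoCa versus WT and 4620 in TMut versus WT, 0 of the 10 genes in TMut versus WT, where Slc7a3 turned to 0.47, and 1 and 10 of the pathway genes in TFoCa and TMut versus WT. Only WT had a replicate 3, so the covariate fitted that library exactly. The differences from WT were therefore those found without WT replicate 3, such as 0.47 for Slc7a3, and the block is no separate check of them. The numbers are not stated to pair the lines, and deviations of same-numbered libraries correlated by 0.0192 to 0.185 across genes.

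Of the 56 differences given in the text for genes of the lists (43 genes named by rule, and Cebpg and Fgf21), 46 were called; 20 of these lost the call under some alternative, 18 of them when some library was left out and 8 without WT replicate 1. Of the uncalled, 6 became called under some alternative. None of the 56 changed sign under the alternatives run, but they were narrowed to those given here after the values were seen: over all 129 differences of the 43 genes in the 3 comparisons, 18 changed sign under some alternative, and 0 of these 18 were called. The lowest value of the 10 genes rested on 228 reads, and each genotype had 2 or 3 lines.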

Other observations

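Other stress programmes were measured beside the ATF4 response. Of 16 NRF2 pathway genes, which answer oxidative stress, 6 rose and 0 fell in TMut versus WT by limma, with a median difference of 0.68. Nfe2l2, which encodes NRF2, had 1555, 1621 and 1581 in WT, 2860 and 2518 in TFoCa, and 3511 and 3946 in TMut, and rose by 1.23 ± 0.10 (SE) on the log2 scale in TMut (adjusted p = 0.000217) and by 0.76 ± 0.10 in TFoCa (adjusted p = 0.00778). Its 3 genotypes did not overlap. Fth1, the ferritin heavy chain, rose by 0.95 ± 0.12 in TMut (adjusted p = 0.000849), the exporter Abcc1 by 0.70 ± 0.11 (adjusted p = 0.00273) and the haem oxygenase gene Hmox1 by 0.93 ± 0.21 (adjusted p = 0.011), the last not called without TMut replicate 2 (adjusted p = 0.0841). The count that rose was 3 without TMut replicate 2. Of the 16, 2 rose in TFoCa versus WT, Nfe2l2 and Abcc1, and Abcc1, at 0.55 ± 0.11 (adjusted p = 0.0278), lost its call without any 1 WT library or TFoCa replicate 2 (adjusted p from 0.0707 to 0.102), which left 1. With TFoCa replicate 1 left out 2 of the 16 fell, and 1 fell with either TMut library left out. Slc7a11, a target of both ATF4 and NRF2, was lower in TMut, as described above.

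Of 15 hypoxia genes, 4 rose and 2 fell in TMut versus WT, and 3 rose and 0 fell in TFoCa versus WT. Car9, a carbonic anhydrase, had 73.7, 52.6 and 66.7 in WT, 202 and 203 in TFoCa, and 273 and 311 in TMut, and rose by 2.17 ± 0.25 in TMut (adjusted p = 0.000593) and by 1.65 ± 0.25 in TFoCa (adjusted p = 0.00996). Adm, the vasodilator adrenomedullin, rose by 1.17 ± 0.26 in TMut (adjusted p = 0.00994) and by 1.77 ± 0.26 in TFoCa (adjusted p = 0.00945), the former not called without TMut replicate 1 (adjusted p = 0.0614). The collagen hydroxylase gene P4ha1 rose by 0.83 ± 0.14 in TMut (adjusted p = 0.00272). Vegfa, an angiogenic factor that ATF4 can also induce, fell by 1.30 ± 0.26 in TMut (adjusted p = 0.00649), with 9486 in WT replicate 1 against 17841 and 16911 in the other WT libraries, and its call was lost without TMut replicate 2 (adjusted p = 0.0509), where 0 of the 15 fell. Ddit4, which hypoxia also induces, had nearly equal levels in the 3 WT libraries, as given above.

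Of the 13 closest relatives of the 10 genes, 3 rose and 4 fell in TMut versus WT, and 1 rose without WT replicate 2, WT replicate 3 or TMut replicate 2, whereas 6 fell without WT replicate 1. Some of them, such as Slc7a2, also stand in the lists above. Cebpa, related to the partners of ATF4, rose by 1.38 ± 0.20 in TMut (adjusted p = 0.00164) and by 0.94 ± 0.20 in TFoCa (adjusted p = 0.0287), the latter lost without any 1 WT library or TFoCa replicate 1 (adjusted p from 0.0826 to 0.102). Creb1 fell by 0.88 ± 0.14 (adjusted p = 0.0021) and Atf2 by 0.49 ± 0.09 (adjusted p = 0.00466) in TMut. Sesn3 had 0.59 ± 0.16 in TFoCa (adjusted p = 0.0589) and was called there without TFoCa replicate 1 (adjusted p = 0.0158). Among the 13, 1 rose in TFoCa versus WT, and 0 without any 1 WT library.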
